A study of Mus musculus with 6 samples.

Results

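The regions described here were the H3S10p peaks closest to the centromeric end of 15 mouse chromosomes. They were the peaks on chromosomes 1 to 18, leaving out 3, 11 and 14, whose midpoint lay below 8 Mb on the mm9 build. Assembled sequence begins at 3 Mb on these chromosomes, so the regions were their first 5 Mb, 75 Mb in all. The rule found 257 of the 11067 peaks of library 1 and 296 of the 12261 peaks of library 2. On the same 15 chromosomes beyond 8 Mb, the lists held 8628 and 9558 peaks, called the rest below. The rule used position alone on these chromosomes, but the chromosomes themselves were picked with densities of these data known.

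The series held 6 samples, all of embryonic stem cells from 129P2/Ola mice. Chromatin immunoprecipitation and sequencing (ChIP-seq) for H3S10p was done in 2 libraries of 1 group, cells held with aphidicolin for 20 hours and then released for 3 hours. Aphidicolin inhibits the replicative DNA polymerases and is used to hold cells at the start of DNA replication. The other 4 libraries were RNA and are not used here. The labels do not say whether the ChIP libraries came from separate cultures, so their spread may be technical. A score listed with each peak came from the authors' peak caller, and its scale is not named. No input library was analysed here, so it was not tested whether the peaks reflect enrichment of H3S10p.

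H3S10p is histone H3 phosphorylated at serine 10. Aurora B, the kinase of the chromosomal passenger complex, places most of it in dividing cells, and the mark first gathers at pericentric heterochromatin in G2 before it spreads over the condensing chromosomes. Mouse chromosomes carry the centromere at one end, where minor satellite repeats form the centromere and long arrays of major satellite form the pericentric heterochromatin. The long arrays lie in the unassembled end of mm9 chromosomes, and the peaks described here lay on the assembled sequence next to it. Whether that sequence holds copies of satellite repeats at these peaks was not tested.

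In these flanking regions peaks were found on each of the 15 chromosomes in both libraries, but very unevenly. The number per chromosome ran from 8 to 37 in library 1 (median 16) and from 9 to 47 in library 2 (median 18). Chromosome 7 held the most, with 37 peaks in library 1 and 47 in library 2. Chromosome 16 followed with 30 and 33. Chromosome 9 came next in library 1 with 22, while in library 2 its 19 were fewer than the 21 of each of chromosomes 2, 12 and 17. The fewest were on chromosome 13, with 8 and 9. Counts per chromosome went together between the libraries (Pearson's r = 0.94 and Spearman's rho = 0.85 over 15 chromosomes), a description over chromosomes that share a library, its depth and its peak caller.

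**Figure D1:**
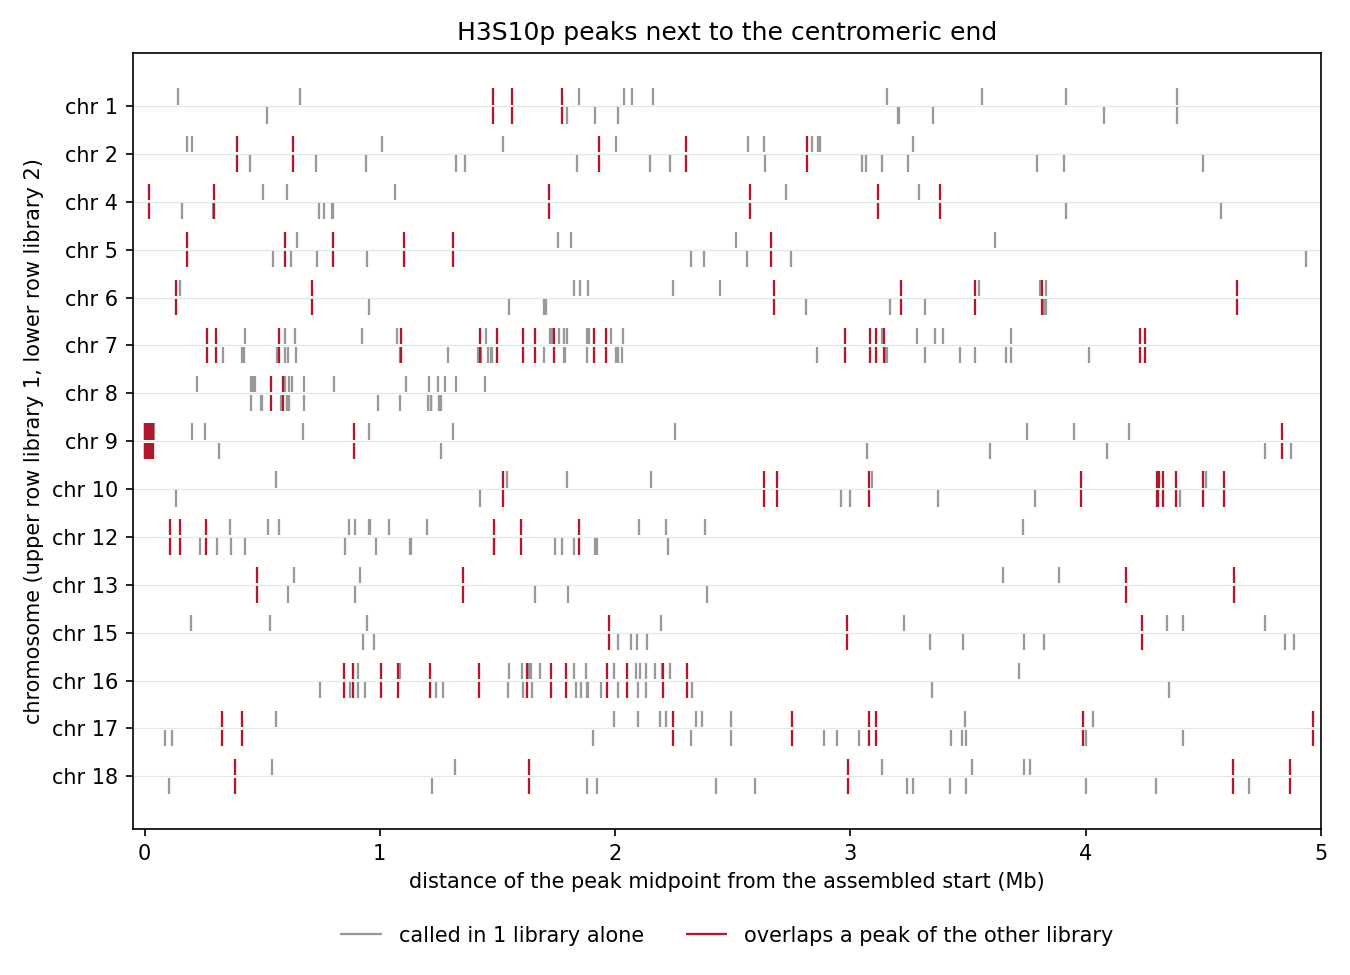
Each tick is 1 peak, placed by the distance of its midpoint from the assembled start in Mb, with library 1 in the upper and library 2 in the lower row of each chromosome, red where the peak overlaps a peak of the other library and grey where it was called in 1 library alone. The group at the edge of chromosome 9, the runs on chromosomes 7 and 16, and the empty part of chromosome 8 recur in both libraries.

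Pooled over the 15 regions, the first 5 Mb had fewer peaks per Mb than the rest. Library 1 had 3.43 peaks per Mb (exact Poisson 95% interval 3.02 to 3.87) against 4.59 (4.49 to 4.68) in the rest, 0.747 times as many. Library 2 had 3.95 (3.51 to 4.42) against 5.08 (4.98 to 5.18), 0.777 times as many. These intervals account for counting error alone, and peaks that lie side by side are not independent. The regions made up 3.83% of the measured span and held 2.89% and 3.004% of the peaks on these chromosomes.

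The sparseness was not shared by all chromosomes, and as a difference within chromosomes it did not pass the test after adjustment. With the libraries averaged, density was 3.69 ± 1.68 peaks per Mb at the start and 4.78 ± 1.105 in the rest (SD over 15 chromosomes), a difference of -1.097 ± 1.87. It was below the rest on 12 of 15 chromosomes. The two-sided sign-flip permutation p was 0.0422, and 0.169 after Benjamini-Hochberg adjustment over the 4 measures compared. Chromosomes are not biological replicates. The call depended on single chromosomes. By the same permutation test, the difference was -1.36 without chromosome 7 (adjusted p = 0.0415) and -1.38 without chromosome 16 (adjusted p = 0.0342). In the first 2 Mb alone the mean difference was 0.47, of the opposite sign (adjusted permutation p = 0.863). The mean was 5.2 peaks per Mb there against 4.73 in the rest, though the start was lower on 10 of 15 chromosomes. Over all 19 autosomes the mean difference was positive too, at 0.23 (adjusted permutation p = 0.962), with the start lower on 14 of 19.

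Chromosomes 7, 16 and 12 were the ones denser at the start with the libraries averaged. Chromosome 7 had 8.40 ± 1.41 peaks per Mb there (SD, n = 2 libraries) against 5.76 ± 0.47 in the rest. Chromosome 16 had 6.30 ± 0.42 against 3.48 ± 0.22, the largest ratio of the 15 at 1.81. On chromosome 12 the values were 4.0 ± 0.28 and 3.503 ± 0.01. The density of the rest lay below the Poisson interval of the start on chromosome 16 in both libraries and on chromosome 7 in library 2, where that interval was 6.91 to 12.5 peaks per Mb.

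Chromosomes 4, 5, 13, 15 and 17 stood at the other extreme. Chromosome 4 had 2.50 ± 0.42 peaks per Mb at the start and 6.08 ± 0.58 in the rest (SD, n = 2 libraries), the lowest ratio at 0.411. Chromosome 5 was alike, with 2.60 ± 0.57 and 5.83 ± 0.66. On chromosome 13 the start had 1.70 ± 0.14 and the rest 3.52 ± 0.13, on chromosome 15 the start had 2.60 ± 0.57 and the rest 5.05 ± 0.31, and on chromosome 17 the start had 3.90 ± 0.42 and the rest 6.56 ± 0.54. On these 5 chromosomes the density of the rest lay above the Poisson interval of the start in both libraries. On chromosome 2 it did so in library 1 alone, with 3.20 peaks per Mb at the start (1.83 to 5.197) and 5.41 in the rest.

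The remaining chromosomes lay between. Chromosome 9 had 4.10 ± 0.42 peaks per Mb at the start and chromosome 10 had 3.5 ± 0.14. Chromosomes 8 and 6 had 3.40 and 3.20, the same in both libraries, and chromosome 1 had 2.50 ± 0.14. Chromosome 18 was below its rest in library 1, with 11 peaks and 2.20 per Mb against 2.95, and just above it in library 2, with 18 peaks and 3.60 against 3.46. How dense a chromosome was elsewhere said little about its start: across the 15 chromosomes, density at the start and in the rest had Pearson's r = 0.14 and Spearman's rho = 0.06, given as a description.

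**Figure D2:**
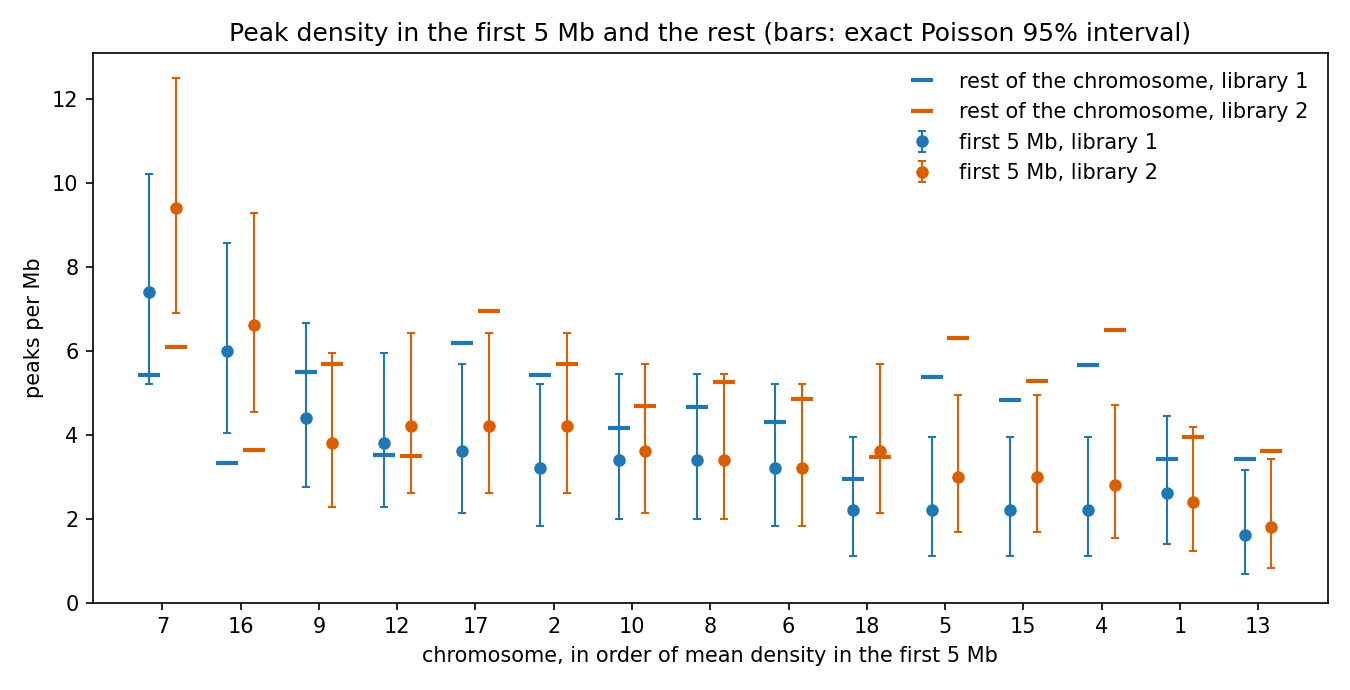
Circles give peaks per Mb in the first 5 Mb of each chromosome with their exact Poisson 95% intervals, and dashes the density of the rest of the same chromosome, by library. Chromosomes 7 and 16 sit above their dashes in both libraries, and chromosomes 4, 5, 13, 15 and 17 have their dashes above the intervals.

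Low density at the start was not exceptional for its own chromosome. Each chromosome was divided from 3 Mb on into consecutive windows of 5 Mb. In library 1 the windows with more peaks than the first outnumbered those with fewer on 8 chromosomes, the reverse held on 6, and on chromosome 8 there were 12 of each. In library 2 windows with more outnumbered those with fewer on 7 chromosomes, and the reverse held on 8. On none of the 15 was the first window the sparsest or the densest of its chromosome in either library. On chromosome 7 it was exceeded by 6 windows in library 1 and 4 in library 2, and on chromosome 13 by 17 and 16.

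Along the regions, density was higher in the first 2 Mb than in the last. Pooled over the 15 chromosomes, the second Mb from the assembled start had 4.73 peaks per Mb in library 1 (3.70 to 5.97) and 5.40 in library 2 (4.29 to 6.71). Between 2 and 3 Mb it was 3.13 (2.30 to 4.17) and 3.07 (2.25 to 4.09). Between 4 and 5 Mb it was 1.53 (0.972 to 2.30) and 2.27 (1.57 to 3.17), with intervals wholly below those of the second Mb in both libraries.

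Chromosomes 7 and 16 carried much of the density in the second Mb. Without them, a choice made after their values were seen, it was 2.77 (1.94 to 3.83) in library 1 and 3.38 (2.46 to 4.54) in library 2. The second Mb then had an interval that overlapped that of the fifth, which was 1.62 (0.9999 to 2.47) and 2.31 (1.56 to 3.29). From 0.5 to 1 Mb, also without them, density was 4.77 (3.24 to 6.77) and 4.92 (3.37 to 6.95). Those intervals lay above that of the fifth Mb in both libraries, narrowly in library 2. From 0.2 to 0.5 Mb it was 3.59 (1.96 to 6.02) and 4.10 (2.34 to 6.66), with intervals that overlapped that of the fifth. With all 15 chromosomes, the stretch from 5 to 10 Mb beyond the assembled start had a density of 2.67 (2.31 to 3.06) and 2.72 (2.36 to 3.12), and from 10 to 15 Mb it was 2.81 (2.45 to 3.22) and 3.0 (2.62 to 3.42). From 15 to 20 Mb it was 3.57 (3.16 to 4.03) and 4.16 (3.71 to 4.65), close to the 3.43 and 3.95 of the first 5 Mb, and from 20 to 30 Mb it was 5.66 (5.29 to 6.05) and 6.59 (6.18 to 7.01).

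**Figure D3:**
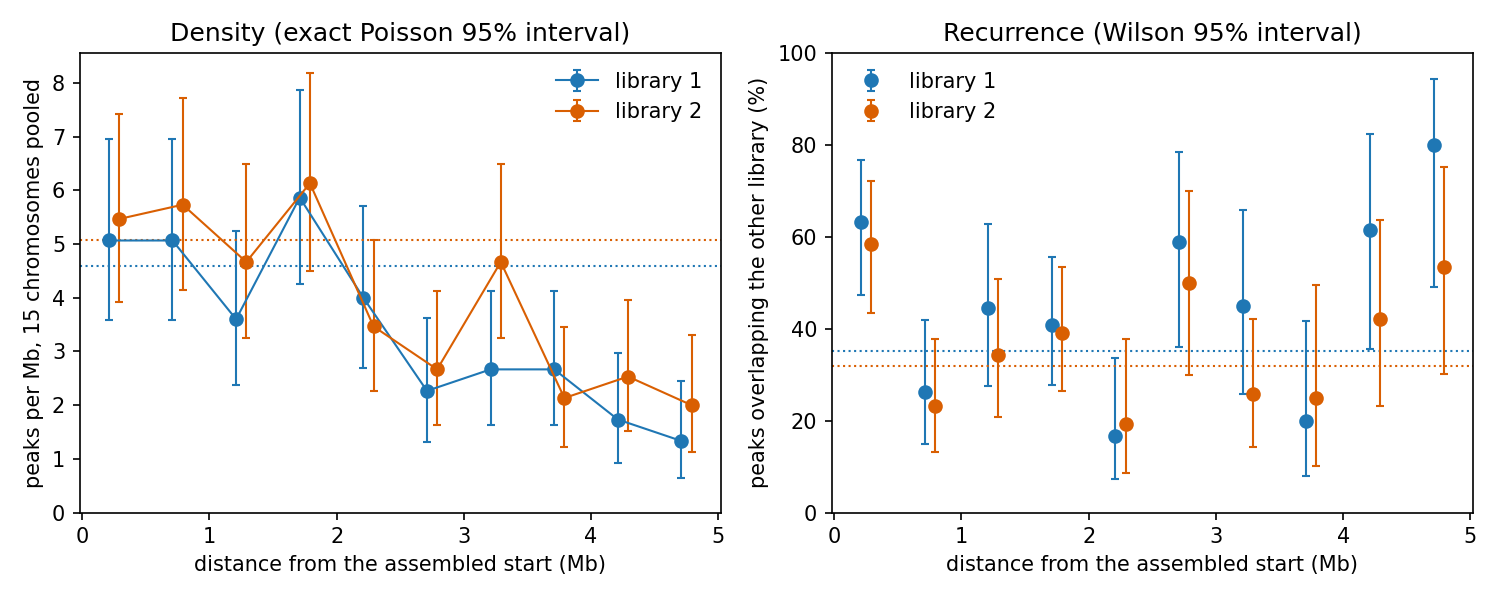
Left, peaks per Mb pooled over the 15 chromosomes in steps of 0.5 Mb with exact Poisson 95% intervals. Right, the percent of peaks that overlap a peak of the other library with Wilson 95% intervals; dotted lines give the rest of the chromosomes, and the first 0.5 Mb has 63.2% in library 1 and 58.5% in library 2.

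The 150 windows of 0.5 Mb held a median of 1 peak in each library, and 30 of them (20.0%) held none in either. In the rest of the chromosomes 26.5% of 3755 such windows were empty and the median was also 1. The 5 fullest windows together held 54 of the library 1 peaks (21.0%) and 48 of the library 2 peaks (16.2%). They lay on 4 chromosomes, and the fullest pair had a mean of 12 peaks each.

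One of that pair was the first window of chromosome 9, from 3000001 to 3500000, with 13 peaks in library 1 and 11 in library 2. Nearly all of these sat in its first 40 kb: 11 in library 1, between 2999894 and 3038399, and 10 in library 2, between 2999893 and 3037022. The first peak is listed from just before 3 Mb in both libraries. All 10 of the library 2 peaks paired with a library 1 peak. Peaks covered 36.9% and 36.4% of those spans. After the group the next midpoint lay 200 kb from the start in library 1 and 318 kb in library 2. The remainder of the region on chromosome 9 held 11 and 9 peaks, of which 2 in each library were shared.

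The other of the pair lay on chromosome 16, from 4500001 to 5000000, with 12 peaks in each library. Its neighbour from 5000001 to 5500000 held 9 and 7 and was also among the 5 fullest. Between 4 and 5.5 Mb, a range set after the values were seen, chromosome 16 had 26 peaks in library 1 (17.3 per Mb, 11.3 to 25.4) and 25 in library 2 (16.7 per Mb, 10.8 to 24.6), 11 of them shared in each. From 5.5 to 8 Mb there were 1 and 2. The high count of chromosome 16 thus came from a run of 1.5 Mb.

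On chromosome 7 the window from 4500001 to 5000000 held 13 peaks in library 1 and 9 in library 2. Together with the window before it, from 4 to 5 Mb, it held 18 and 19 peaks, of which 8 in each library were shared. From 6 to 6.5 Mb there were 7 in each. Peaks on chromosome 7 were therefore spread over more of the region than those on chromosome 16.

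Chromosome 8 had the last of the 5 windows, from 3500001 to 4000000, with 7 and 9 peaks. All 17 peaks of library 1 and all 17 of library 2 lay in the first 1.5 Mb, a range set after the values were seen. That was 11.3 per Mb (6.60 to 18.1) in each, and 2 in each were shared (11.8%, Wilson interval 3.29 to 34.3%). In the rest of chromosome 8 the share was 30.5% in library 1 and 27.0% in library 2, both inside that interval. From 4.5 to 8 Mb chromosome 8 had 0 listed peaks in both libraries. The peak-free stretch, from 4447272 to the limit at 8 Mb, was 3553 kb long and by far the longest of any region.

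The next longest stretches without a peak in either library lay on chromosome 12, from 5381873 to 6734053 (1352 kb), and on chromosome 17, from 3557679 to 4908051 (1350 kb). Each chromosome had a long empty stretch in each library. The longest per chromosome had a median of 1385 kb in library 1 (943 to 3553 kb) and 1191 kb in library 2 (590.4 to 3741 kb). The midpoint nearest to the assembled start had a median distance of 197 kb in library 1 and 182 kb in library 2, from 0.729 kb on chromosome 9 to 847 kb on chromosome 16 in library 1 and 930 kb on chromosome 15 in library 2.

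Peaks in these regions were also more widely spaced. In library 1, 14.4% (Wilson interval 10.6 to 19.2%) had a neighbour within 10 kb, against 22.1% (21.3 to 23.0%) in the rest. Library 2 had 19.6% (15.5 to 24.5%) and 24.5% (23.7 to 25.4%). Without the group on chromosome 9 the shares were 10.6% (7.32 to 15.04%) and 16.8% (12.9 to 21.5%). The median gap to the nearest neighbour was 53.5 kb in library 1 and 42.0 kb in library 2, against 31.8 and 28.1 kb in the rest. No test was made of these differences, and peak density was lower at the start as well.

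Recurrence was the next measure, with an overlap of 1 bp or more between libraries counted as shared. In the flanking regions 108 peaks of each library were shared, each with a single partner. That was 42.0% of the library 1 peaks (36.1 to 48.1%) and 36.5% of those of library 2 (31.2 to 42.1%). The background was 35.1% and 31.7% over the whole lists, and 35.2% and 31.8% in the rest of the 15 chromosomes. Without the chromosome 9 group the shares were 39.8% (33.9 to 46.1%) and 34.3% (29.0 to 39.9%), with intervals that included the background. Per chromosome, with the libraries averaged, the share was 39.1 ± 13.8% at the start and 33.5 ± 3.23% in the rest (SD, 15 chromosomes). The difference of 5.57 percentage points, positive on 10 of 15 chromosomes, did not pass the permutation test (p = 0.127, adjusted p = 0.209).

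The observed share of recurring flanking peaks ran widely over chromosomes, on small counts for which no intervals are given here. On chromosome 10, 11 of 17 peaks in library 1 and 11 of 18 in library 2 were shared (64.7% and 61.1%). The rest of chromosome 10 had 35.5% and 31.4%. On chromosome 9 it was 12 of 22 and 12 of 19 (54.5% and 63.2%), 10 of the 12 in the first 40 kb. Its rest had 33.7% and 32.9%. The dense chromosomes 7 and 16 had 17 of 37 and 13 of 30 in library 1 (45.9% and 43.3%), and 17 of 47 and 13 of 33 in library 2 (36.2% and 39.4%). The rest of chromosome 7 had 34.4% in library 1 and 30.4% in library 2, and that of chromosome 16 had 37.7% and 34.5%. Chromosome 8 had the lowest shares. Chromosome 1 followed in library 1 with 3 of 13 peaks (23.1%), against 41.5% in its rest. Chromosomes 8 and 10 thus had like numbers of flanking peaks and very different shares of recurring ones.

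By distance, the share of recurring peaks in library 1 was highest at both edges of the regions. In the first 0.2 Mb, 15 of 21 peaks in library 1 (71.4%, 50.04 to 86.2%) and 15 of 20 in library 2 (75%, 53.1 to 88.8%) were shared. Chromosome 9 gave most of them: without it there were 5 of 9 (55.6%, 26.7 to 81.1%) and 5 of 10 (50%, 23.7 to 76.3%). Between 0.5 and 1 Mb the share was 26.3% (14.97 to 42.0%) and 23.3% (13.2 to 37.7%). In the last Mb, where peaks were fewest, 16 of 23 in library 1 (69.6%, 49.1 to 84.4%) and 16 of 34 in library 2 (47.1%, 31.5 to 63.3%) were shared. The interval of library 1 there lay above its background, and that of library 2 included it. Chromosome 10 gave 4 of the shared peaks of this Mb in each library from 7000001 to 7500000, and 2 from 7500001 to 8000000. No share was computed without them.

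Width went with recurrence inside the regions as it did elsewhere. Peaks were placed in 4 groups by the quartiles of width in their whole list. In library 1, 11 of 62 flanking peaks in the narrowest group were shared (17.7%, 10.2 to 29.0%) and 41 of 67 in the widest (61.2%, 49.2 to 72.0%), against 15.96% and 55.2% in the rest. In library 2 it was 13 of 66 (19.7%, 11.9 to 30.8%) and 44 of 76 (57.9%, 46.7 to 68.4%), against 13.3% and 51.5%. Each interval at the start included the value of the rest. In both libraries the shared flanking peaks had a larger median width (424 and 413 bp) than those called in 1 library alone (276 and 269 bp).

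Typical width and score were close to those of the rest. In library 1 the median width was 335 bp at the start and 319 bp in the rest, and in library 2 it was 314 and 292 bp. Per chromosome the medians averaged 337 ± 77.4 bp at the start and 308 ± 13.05 bp in the rest, and the difference of 29.3 bp, positive on 7 of 15 chromosomes, did not pass the permutation test (p = 0.157, adjusted p = 0.209). The median score was 66.3 and 66.7, against 66.0 and 66.8. Per chromosome it averaged 66.8 ± 5.69 and 66.5 ± 1.02, a difference of 0.31 (permutation p = 0.903 before and after adjustment). It was positive on 5 of 15 chromosomes, and without chromosome 9 it was -0.997.

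Unlike the medians, the share of peaks scoring over 150, a limit chosen with these data known, was higher among flanking peaks. The highest scores of all lay beyond 8 Mb on chromosome 9, at 2299 in library 1 and 2322 in library 2. A score over 150 was listed for 12 flanking peaks in library 1 and 12 in library 2. That was 34.3% of the 35 such peaks on these 15 chromosomes in library 1 and 32.4% of 37 in library 2, from 3.83% of the span. Their density was 0.160 per Mb (0.0827 to 0.279) in each library, against 0.0122 (0.00775 to 0.0183) and 0.0133 (0.00860 to 0.0196) in the rest. The group on chromosome 9 held 6 and 7 of the 12. Without it, a group set after the values were seen, 6 and 5 such peaks were left. Their density was 0.0800 per Mb (0.0294 to 0.174) and 0.0667 (0.0217 to 0.156). These intervals lay above those of the rest, narrowly in library 2, but they treat the peaks as independent. In library 2, 3 of the 5 lay on chromosome 7. Of the 12, 11 in each library were shared and 9 in each lay within the first 0.2 Mb.

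Among the flanking pairs, the one with the highest mean score stood at the very edge of the assembled sequence of chromosome 9. It ran from 2999894 to 3001565 in library 1, with a score of 485, and from 2999893 to 3001565 in library 2, with a score of 522. On the same chromosome the pair starting at 3035586 scored 528 and 412, and ended at 3036711 in library 1 and at 3037022 in library 2. The pair at 3015147 to 3016470 (library 1) and 3015144 to 3016474 (library 2) scored 325 and 377. The pair at 3004309 to 3006077 (library 1) and 3004376 to 3006079 (library 2) scored 260 and 247.

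The pair of this group from 3025187 to 3027926 had the same borders to the base in both libraries, a width of 2740 bp and scores of 119 and 274. It was the widest shared peak of all regions. Next in width were the pairs at 3004309 to 3006077 (1769 bp in library 1, 1704 bp in library 2) and at the edge of the assembled sequence (1672 and 1673 bp), both on chromosome 9. The pair at 3031747 to 3032835 scored 174 and 198. The lowest scores of the group were 50.1 in library 1 and 70.6 in library 2.

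**Figure D4:**
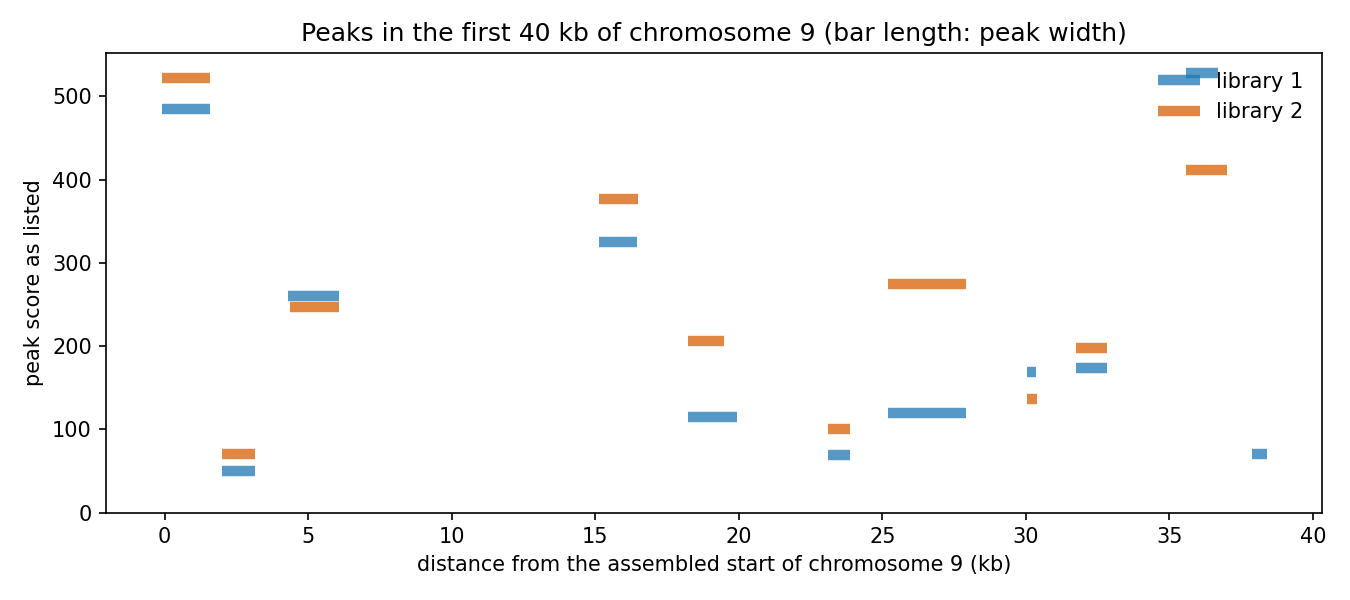
Each bar is a peak in the first 40 kb of chromosome 9, its length the peak width in kb and its height the score as listed, by library. The bars of the libraries lie over the same stretches, with scores from 50.1 to 528 in library 1 and from 70.6 to 522 in library 2.

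Away from chromosome 9, few flanking peaks scored high. Chromosome 12 carried the pair of second rank, from 3109761 to 3110231 in library 1 (score 448) and from 3109763 to 3110230 in library 2 (score 494). Chromosome 5 had a narrow pair, 3181556 to 3181727 (346) and 3181556 to 3181731 (323). Both lay within 0.2 Mb of the assembled start. Chromosome 7 had a pair near the far edge of its region, 7252143 to 7252569 (319) and 7252144 to 7252554 (326), and a second pair just before it at 7230269 to 7231254 (175) and 7230272 to 7231264 (189). These pairs lay 4252 and 4231 kb from the assembled start.

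Averaged over start and end, the borders of the 10 pairs with the highest mean score differed between libraries by a median of 2.75 bp, against 76.3 bp in the other 98 pairs and 88 bp in the shared peaks of the rest. Of the 10, of which 6 belonged to the chromosome 9 group, 8 differed by at most 10 bp, against 3 of the 98 and 3.16% of the 3039 in the rest. The pairs of the rest were of any score, and none were matched by score to the 10. The 10 pairs of the chromosome 9 group also had a median of 2.75 bp, with 7 within 10 bp, and the 3 pairs of lower rank within 10 bp were all in this group. Scores of the 108 pairs had a Spearman correlation of 0.36 between libraries and widths one of 0.69. Without the chromosome 9 group these were 0.20 and 0.60 over 98 pairs, and in the rest 0.10 and 0.48. They are descriptions across peaks, which are not independent.

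**Figure D5:**
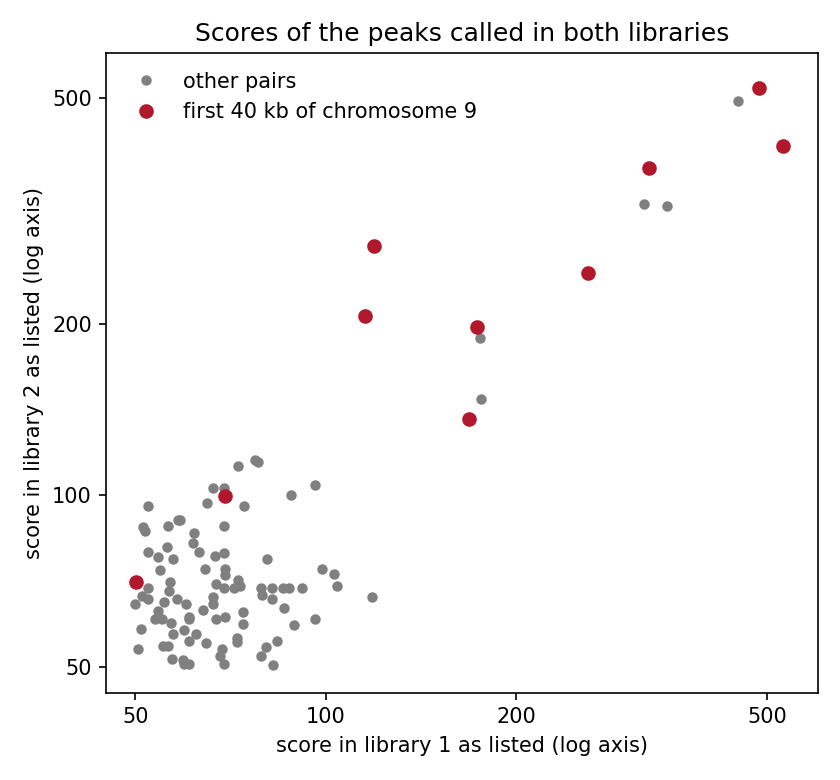
Each point is 1 of the 108 peaks called in both libraries, with its listed score in library 1 on the x axis and in library 2 on the y axis, both logarithmic, and the chromosome 9 group in red. Most pairs lie near the lower limit, and the pair of highest mean score stands at 485 and 522.

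Score went with recurrence less clearly than width. By quartiles of score, 37.9% of flanking peaks in the lowest group and 51.5% in the highest were shared in library 1. In library 2 it was 27.8% and 41.25%, and the intervals overlapped in both libraries. Without the chromosome 9 group the values were 36.9% and 44.8%, and 27.8% and 33.8%. In the rest they were 33.3% and 34.6% in library 1, and 30.2% and 33.3% in library 2. Some high-scoring flanking peaks were called in 1 library alone. In library 1 the highest-scoring peak called in that library alone was on chromosome 6, from 3151354 to 3151652 (score 184), followed by chromosome 2 from 5838767 to 5838969 (148). In library 2 it was chromosome 7 from 7016356 to 7016522 (170), followed by chromosome 2 from 3448516 to 3448691 (125). These were narrow peaks of 299, 203, 167 and 176 bp. At the limit of the regions, the last peaks inside were on chromosome 17, from 7964698 to 7965100 in library 1 (score 68.1) and from 7964663 to 7965093 in library 2 (52.1). The first outside were on the same chromosome, from 8019795 to 8020341 (60.03) and from 8019776 to 8020341 (70.5), and both pairs were shared.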

How the data were processed

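H3S10p ChIP-seq was measured in 2 libraries. Peaks were called with MACS, separately in each library, per the file headers. Reads were aligned to mm9 with Bowtie named, per the submitters' processing notes. The version, the threshold and a control are each not given in the sources used here. The score of each peak was used as the authors deposited it, and read depth is unknown from these lists.

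Positions are counted from 1. Samples were grouped by title. Spans ran from 3 Mb to the last called base. Densities have exact Poisson and shares Wilson 95% intervals. For density, shared percent, median width and median score, start minus rest was tested over 15 chromosomes with sign flips, a two-sided permutation test (up to 100000 resamples, here all 32768 sign patterns), adjusted over the 4 measures with a threshold of 0.05. The check on simulated lists with density planted at 0.5 times the rest recovered 0.508 over these 15 chromosomes. A planted score difference of 10 came back as 12.4. With nothing planted, 9 of 160 unadjusted p-values of the permutation test were under 0.05. Simulated peaks were placed evenly and independently, so the check does not give the error rate for clustered peaks such as these. Alternatives covered the width of the region, score and width filters, overlap rules, libraries and chromosomes.

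Named were the 10 shared pairs of highest mean score, the 3 widest, the 2 highest-scoring peaks per library called there alone, the peaks at the limit, the 5 fullest windows of 0.5 Mb and the 3 longest empty stretches. The regions, measures and rules were chosen with earlier results of these data known. Gene annotation and sequence of mm9 were not used here. Python 3.11.15, NumPy 2.4.6, pandas 2.3.3, SciPy 1.17.1 and matplotlib 3.10.9 were used.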

Additional observations from a re-analysis of the deposited data

How the results depend on the processing

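The difference in density between start and rest was -1.097 peaks per Mb. This mean had the opposite sign in the first 2 Mb (0.47) and over all 19 autosomes (0.23). The start was still lower there on 10 of 15 and 14 of 19 chromosomes. The difference passed the test in the first 10 Mb (-1.68, adjusted permutation p = 0.00977), without chromosome 7 (-1.36) and without chromosome 16 (-1.38). The cause was not tested. Leaving out each of the other 13 chromosomes did not change its call. The difference in median score, 0.31, turned negative without chromosome 9 (-0.997), without chromosome 10 (-0.14) and without the first 0.2 Mb (-0.79), and passed the test under none of its alternatives. The differences in shared percent and in median width kept their sign and stayed short of the adjusted threshold under each alternative run, 25 and 23 of them. Leaving out a ChIP library gave -1.11 to -1.08 peaks per Mb, 4.56 to 6.59 percentage points shared, 19.03 to 39.6 bp in width and -0.87 to 1.49 in score. The number of peaks in the regions was 553 for both libraries together, also with the whole peak or any base below 8 Mb. No paired analysis was possible because the ChIP libraries formed a single group. Per chromosome the regions held 8 to 47 peaks a library, so shares and medians for single chromosomes are imprecise, and scores cannot be set on a common scale without the read depth.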
